A study of Mus musculus with 4 samples.

Results

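The transcripts described here are those of cholesterol synthesis and its control by SREBP2, chosen by symbol from a list of 28 genes that spans the pathway from acetoacetyl-CoA to cholesterol and the proteins that release or retain the transcription factor. Of the 28 genes, 26 had a probe set annotated with their symbol alone, out of 22180 such genes on the array. Idi1, the isopentenyl diphosphate isomerase, shared its only probe set with another symbol, and Acat2, a cytosolic thiolase, had no probe set listed, so neither was measured here. All 26 measured genes passed the filter on low signal that kept 13308 genes.

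Levels were measured in bone marrow-derived macrophages of mice aged 8 to 12 weeks on an Affymetrix whole-transcript array, with 1 array for each of 4 groups. The groups were Hilpda knockout (KO, from HilpdaΔMΦ mice, deleted in macrophages) after 12 h, wild type (WT, floxed littermates, Hilpdaflox/flox) after 12 h, KO after 24 h and WT after 24 h. All 4 received 600 µM fatty acids bound to albumin, with palmitate to oleate at 1:2, and all had been differentiated in medium with 10% serum and 15% L929-conditioned medium. Each array carried RNA pooled from 3 samples, the labels do not name the driver of the deletion, and no array of untreated cells was analysed here. Because each group had a single array, differences at one time or within one genotype carry no error and were not tested. A difference is given on the log2 scale, as KO minus WT or as 24 h minus 12 h, and was counted when it reached 1.5-fold (0.585 on the log2 scale).

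Cholesterol is built from acetyl-CoA through mevalonate, which is converted to isoprene units, joined to farnesyl diphosphate and then to squalene. Squalene is oxidised and folded into lanosterol, and a series of demethylations, reductions and isomerisations turns lanosterol into cholesterol. When sterol in the endoplasmic reticulum is scarce, SCAP carries the membrane-bound precursor of SREBP2 to the Golgi, where proteases free its active part. That part activates the genes of the pathway. INSIG proteins hold SCAP back when sterol is plentiful. Macrophages that take up lipid keep their free cholesterol in bounds through this loop, through esterification and through export. HILPDA, the protein missing in KO cells, inhibits the main triglyceride lipase at the lipid droplet.

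RefSeq promoter windows of the GRCm38.p6 assembly, 300 bases from 250 before to 50 after the transcript start, were found for 24 of the 28 genes. Fdps, Sqle, Fdft1 and Stard4 had no entry. The windows were searched on both strands for forms of the sterol element bound by SREBP, TCACNCCAC, TCACNNCAC, CACNCCAC and TCACACGAG, which overlap one another in part, and for the CCAAT box of NF-Y and the GGGCGG box of Sp1, 2 factors known to act beside SREBP. A CCAAT box was present for 20 of the 24 genes (83.3%), against 41.1% of 27025 genes with a window and 42.0% of the 10424 among them that passed the level filter. The GGGCGG box was present for 21 of 24 (87.5%), against 38.2% and 65.2%. The form TCACNCCAC was found for Hmgcs1 alone among the 24, against 1.44% of all genes. The looser TCACNNCAC was found for Hmgcs1, Msmo1, Hsd17b7 and Dhcr7, which is 16.7% of the 24 genes against 4.37% of all. The shorter CACNCCAC was found for 3 genes (12.5% against 7.12%), and TCACACGAG for 0 of 24, against 0.0925% of all genes. A match is a string of letters and not a shown binding site.

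The 5 windows below are shown because they belong to genes with a single window that lie at both ends of the pattern described next. Hmgcs1, Cyp51, Hsd17b7 and Insig1 had the highest level in WT at 12 h, and Lbr, a sterol reductase, did not. Capitals mark CCAAT on either strand (read as ATTGG on the reverse) and TCACNNCAC, which includes TCACNCCAC. In Hmgcs1 the sterol form starts 137 bases before the transcript start, between CCAAT boxes, and in Hsd17b7 the looser form starts 117 bases before it.
Hmgcs1, chr13:119690101-119690400, plus strand: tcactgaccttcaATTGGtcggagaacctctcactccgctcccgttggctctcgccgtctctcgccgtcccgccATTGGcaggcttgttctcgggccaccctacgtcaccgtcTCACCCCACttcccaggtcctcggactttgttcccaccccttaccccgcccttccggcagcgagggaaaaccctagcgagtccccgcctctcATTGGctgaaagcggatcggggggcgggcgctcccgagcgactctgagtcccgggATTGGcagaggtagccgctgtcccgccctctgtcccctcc
Cyp51, chr5:4104648-4104947, minus strand: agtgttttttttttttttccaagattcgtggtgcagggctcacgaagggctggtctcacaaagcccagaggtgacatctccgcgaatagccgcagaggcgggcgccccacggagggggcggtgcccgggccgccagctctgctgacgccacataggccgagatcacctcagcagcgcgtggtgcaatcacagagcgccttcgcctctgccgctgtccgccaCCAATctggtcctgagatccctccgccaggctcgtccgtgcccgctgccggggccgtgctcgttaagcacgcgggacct
Hsd17b7, chr1:169969156-169969455, minus strand: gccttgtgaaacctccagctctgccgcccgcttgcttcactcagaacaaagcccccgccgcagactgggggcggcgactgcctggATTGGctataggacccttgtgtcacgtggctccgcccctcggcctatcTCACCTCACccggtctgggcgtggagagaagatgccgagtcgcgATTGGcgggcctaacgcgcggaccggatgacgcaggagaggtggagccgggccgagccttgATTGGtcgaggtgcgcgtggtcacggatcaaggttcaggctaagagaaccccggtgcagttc
Insig1, chr5:28071162-28071461, plus strand: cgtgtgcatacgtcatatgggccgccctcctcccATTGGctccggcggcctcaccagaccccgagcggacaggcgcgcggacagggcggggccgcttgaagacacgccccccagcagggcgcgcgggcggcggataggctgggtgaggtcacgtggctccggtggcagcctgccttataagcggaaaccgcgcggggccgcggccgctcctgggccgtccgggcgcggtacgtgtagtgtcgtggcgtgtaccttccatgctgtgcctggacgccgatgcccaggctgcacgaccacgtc
Lbr, chr1:181842352-181842651, minus strand: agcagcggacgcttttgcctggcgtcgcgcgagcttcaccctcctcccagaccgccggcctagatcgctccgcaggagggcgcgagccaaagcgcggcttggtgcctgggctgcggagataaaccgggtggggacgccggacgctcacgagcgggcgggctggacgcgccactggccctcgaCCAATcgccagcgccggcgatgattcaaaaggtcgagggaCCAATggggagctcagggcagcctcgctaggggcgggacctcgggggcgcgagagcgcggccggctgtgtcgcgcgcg

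Across the 13308 genes kept, the 4 arrays correlated pairwise at 0.986 to 0.995 (Pearson), with the highest value between KO and WT at 12 h. Hilpda itself had a log2 level of 5.41 in KO and 5.93 in WT at 12 h, and of 5.27 in KO and 5.47 in WT at 24 h. That is 1.43-fold and 1.15-fold lower in KO. Whether its single probe set lies in the deleted part is not known, which limits this as a check on the labels. The 8 measured macrophage markers were all above the level filter, with Cd68 between 12.00 and 12.18 and Csf1r between 11.54 and 11.80. Markers of neutrophils and progenitors (0 of 5 past the filter) and of lymphocytes (0 of 4) lay at background, and 1 of 3 dendritic cell markers, Xcr1, was just above it. Stromal cell and fibroblast markers were present, 7 of 9 past the filter with Lum and Thy1 below it. Their summed linear level was 378 in KO and 539 in WT at 12 h, and 511 in KO and 898 in WT at 24 h. In bulk RNA, fewer cells of a type and less RNA per cell cannot be told apart.

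At 12 h, transcripts of cholesterol synthesis were lower in KO than in WT macrophages along the whole pathway. Of the 26 genes, 24 had a difference below 0, against 49.4% of the genes kept, and the median was -0.28, against 0.00 for the genes kept. Lower by at least 1.5-fold were 4 of 26 (15.4%), against 1.4% of the genes kept, and 0 were higher by that amount, against 1.5%. All 18 measured enzymes lay below 0, with a median of -0.39. Just outside the 1.5-fold rule were Sqle and Hmgcs1, both at -0.57, and the nearest gene inside it was Cyp51 at -0.74.

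**Figure D1:**
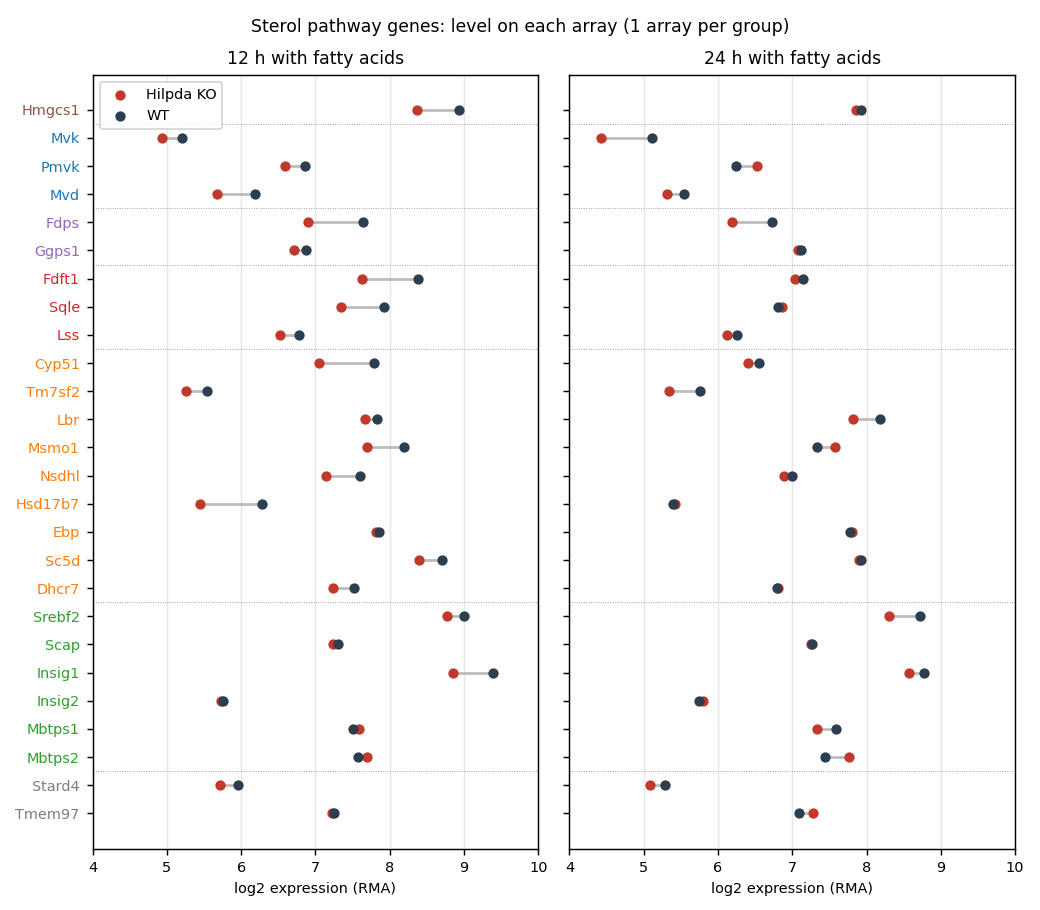
Log2 expression of the 26 measured genes in KO (red) and WT (dark) macrophages after 12 h (left) and 24 h (right) with fatty acids, 1 array per group, with genes in pathway order and label colours by step. At 12 h the KO point lies left of the WT point for 24 genes, and at 24 h for 17.

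In the mevalonate part of the pathway, every measured enzyme was lower in KO at 12 h. Hmgcs1, which condenses acetyl units into HMG-CoA, had a log2 level of 8.36 in KO and 8.93 in WT, a 1.48-fold difference. Mvd, which decarboxylates mevalonate diphosphate, had 5.68 in KO and 6.19 in WT, a difference of -0.51. The kinase genes Mvk and Pmvk differed less, at -0.26 and -0.27. Fdps, which makes farnesyl diphosphate, had 6.90 in KO and 7.65 in WT, a 1.68-fold difference. Ggps1, which extends farnesyl diphosphate towards protein prenylation and away from sterols, was at -0.15.

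The 3 genes of the squalene steps were also lower in KO at 12 h. Fdft1, squalene synthase, had a log2 level of 7.63 in KO and 8.38 in WT, 1.69-fold lower in KO, and of the 13308 genes kept, 66 lay at or below that value. Sqle, the epoxidase that commits squalene to sterols, had 7.35 in KO and 7.92 in WT. Lss, the cyclase that makes lanosterol, was at -0.26, so these genes covered a range from -0.75 to -0.26.

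After lanosterol, all 9 enzymes were lower in KO at 12 h, with a median of -0.31. The largest difference of the 26 genes belonged to Hsd17b7, the ketoreductase of the demethylation steps, with 5.44 in KO and 6.27 in WT, or 1.78-fold. Cyp51, the lanosterol demethylase, had 7.05 in KO and 7.79 in WT, or 1.67-fold. The other enzymes that remove the methyl groups were lower by less, Msmo1, the sterol oxidase, with 7.70 in KO and 8.19 in WT, and Nsdhl, the decarboxylating dehydrogenase, with 7.14 in KO and 7.60 in WT. Sc5d, the desaturase, and Dhcr7, the last reductase of one branch, were at -0.31 and -0.29. Ebp, the isomerase, was at -0.03. Tm7sf2 and Lbr, a pair of reductases for the same step, were at -0.29 and -0.16.

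Among the regulators, the SREBP2-driven retention gene Insig1 lay among the lower enzymes, and the processing genes lay near 0. Insig1, itself a target of SREBP2, had a log2 level of 8.86 in KO and 9.39 in WT at 12 h, a difference of -0.53. Insig2, its paralogue, had 5.73 in KO and 5.75 in WT, and Scap, the escort, was at -0.06. Srebf2, which encodes the transcription factor and is also one of its targets, had 8.78 in KO and 9.01 in WT. Mbtps1 and Mbtps2, the proteases that release SREBP, were the 2 genes with a difference above 0, at 0.09 and 0.13. Stard4, a sterol carrier and SREBP2 target, was at -0.24 and Tmem97, an endoplasmic reticulum protein linked to sterol transport, at -0.03.

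**Figure D2:**
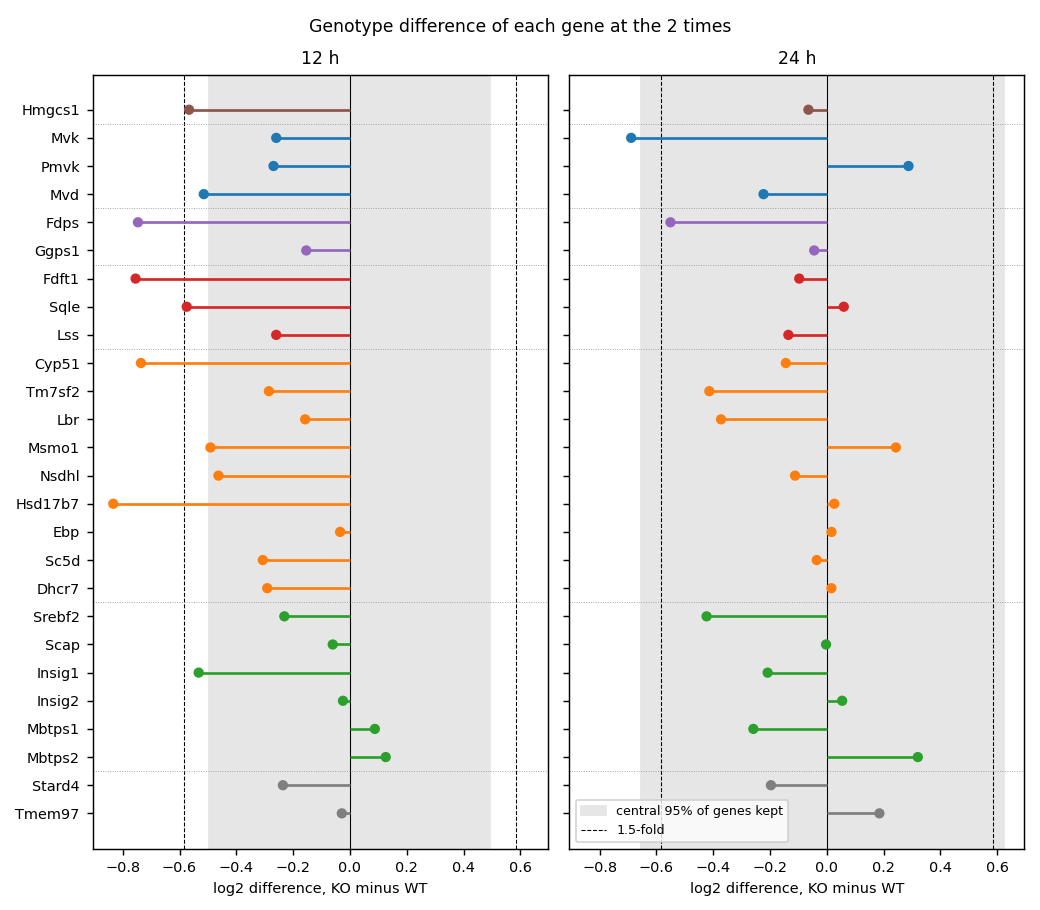
Log2 difference between KO and WT for each gene at 12 h (left) and 24 h (right), coloured by pathway step, with the central 95% of the genes kept shaded and 1.5-fold dashed. At 12 h 8 of the 26 genes lie below the shaded range, and at 24 h only Mvk does.

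At 24 h, the genotypes were closer than at 12 h for most enzymes, the exceptions being the kinase genes Mvk and Pmvk and the reductase genes Tm7sf2 and Lbr. Below 0 were 17 of 26 genes, against 49% of the genes kept, with a median of -0.08, against 0.01 for the genes kept. A single gene was lower in KO by at least 1.5-fold (3.85% of the 26, against 3.51% of the genes kept), and 0 were higher, against 2.98%. That gene was Mvk, mevalonate kinase, with a log2 level of 4.42 in KO and 5.11 in WT, a 1.61-fold difference. The next lowest was Fdps, with 6.18 in KO and 6.73 in WT, at -0.55.

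Several enzymes that differed at 12 h were near equal at 24 h. Hsd17b7 had a log2 level of 5.42 in KO and 5.40 in WT. Sqle had 6.87 in KO and 6.81 in WT, and Hmgcs1 had 7.86 in KO and 7.92 in WT. The squalene synthase gene Fdft1 had 7.04 in KO and 7.14 in WT, and Cyp51 had 6.40 in KO and 6.55 in WT. Msmo1 and Pmvk lay on the other side, at 0.24 and 0.29.

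The 6 regulators ranged from -0.42 to 0.32 at 24 h. Srebf2 had a log2 level of 8.30 in KO and 8.72 in WT, a difference of -0.42, and Insig1 had 8.57 in KO and 8.78 in WT. The proteases parted, with Mbtps1 at -0.26 and Mbtps2 at 0.32. The reductase genes Tm7sf2 and Lbr were lower in KO at -0.41 and -0.37, a larger difference than at 12 h for both. Over the 2 times together, 16 of 26 genes were lower in KO at each, against 26% of the genes kept, and 0 reached 1.5-fold at both, against 0.225%.

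Between 12 h and 24 h, most of these transcripts were lower at the later time in each genotype, and the difference was larger in WT. In WT, 14 of 26 genes were lower at 24 h by at least 1.5-fold (53.8%, against 4.01% of the genes kept), 0 were higher (against 4.71%), and the median was -0.61, against -0.01. Below 0 in WT were 22 of 26, against 50.8%. In KO, 4 genes were lower by that amount (15.4%, against 3.25%), 0 were higher (against 3.06%), and the median was -0.27, against 0.00. Below 0 in KO were 19 of 26, against 49.5%. In both genotypes 18 of 26 were lower at 24 h, against 29.8%, and for 16 of these the difference was larger in WT, against 16.6% of the genes kept. The 4 in KO were Fdps at -0.72, Cyp51 at -0.65, Stard4 at -0.64 and Fdft1 at -0.59. Fdft1 was only just inside the rule there, at 1.5005-fold. In WT Fdft1 and Cyp51 were both at -1.24, 2.37-fold and 2.36-fold lower at 24 h, Sqle was at -1.12 and Hmgcs1 at -1.01.

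The time difference followed the place in the pathway only in part. The 3 squalene genes had a median of -0.48 in KO and -1.12 in WT. The 9 genes after lanosterol had a median of -0.13 in KO and -0.74 in WT, and 6 of them were lower at 24 h by at least 1.5-fold in WT. Hsd17b7 and Msmo1 were lower at 24 h in WT, at -0.88 and -0.86, while their KO values were -0.02 and -0.13. Against this, Lbr was higher at 24 h, at 0.14 in KO and 0.35 in WT, and Tm7sf2 at 0.09 in KO and 0.22 in WT. Ggps1 was also higher, at 0.36 in KO and 0.25 in WT. Insig1 was at -0.29 in KO and -0.61 in WT, and Insig2 at 0.07 in KO and -0.01 in WT.

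**Figure D3:**
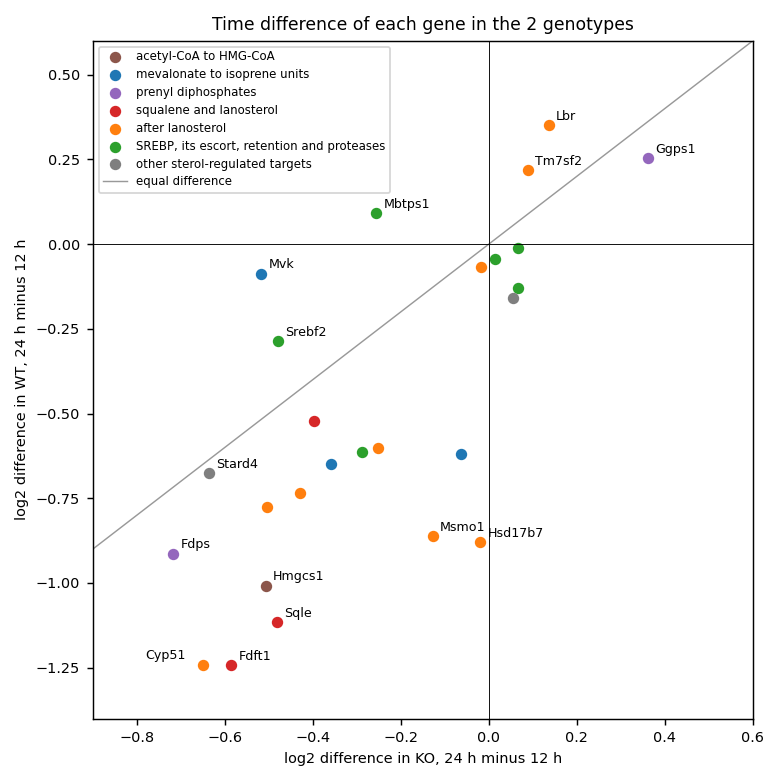
Log2 difference between 24 h and 12 h in KO (horizontal) and WT (vertical) for the 26 genes, coloured by pathway step, with the line of equal difference. Most genes lie in the lower left below the line, with Fdft1 and Cyp51 lowest on the WT axis at -1.24, and Lbr, Tm7sf2 and Ggps1 lie above 0 on both axes.

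The genotype difference at 24 h minus that at 12 h was above 0 for 21 of 26 genes, so KO stood higher relative to WT at the later time. Its median was 0.20, against 0.00 for the genes kept. It reached 1.5-fold for 5 genes (19.2%, against 4.7% of the genes kept). These were Hsd17b7 at 0.86, Msmo1 at 0.73, Fdft1 at 0.66, Sqle at 0.63 and Cyp51 at 0.59, all enzymes from squalene onward. It was below 0 for 5 genes, against 50.1% of the genes kept, and reached 1.5-fold on that side for 0, against 5.42%. The 5 were Mvk, Mbtps1, Lbr, Srebf2 and Tm7sf2, ranging from -0.43 for Mvk to -0.13 for Tm7sf2. With 4 arrays this change has no residual and was not tested.

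These comparisons share arrays, and the WT array at 12 h enters the genotype difference at 12 h, the time difference in WT and the change between times. On that array 19 of the 26 genes had their highest level of the 4, against 22.4% of the genes kept, and 0 had it on the KO array at 12 h, against 23.8%. For 17 genes the order was WT at 12 h, then KO at 12 h, then both 24 h arrays, an order held by 11% of the genes kept. Both 24 h arrays lay below both 12 h arrays for the same 17 genes, against 22.3%. The lowest level was on the KO array at 24 h for 13 genes, against 24%, and on the WT array at 24 h for 8, against 30.2%. With 1 pool on each array, neither genotype nor time can be told apart from pool in any of these comparisons. The time difference in KO and the genotype difference at 24 h do not use the WT array at 12 h, and their medians were -0.27 and -0.08. Each of them also rests on 1 pool per side.

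**Figure D4:**
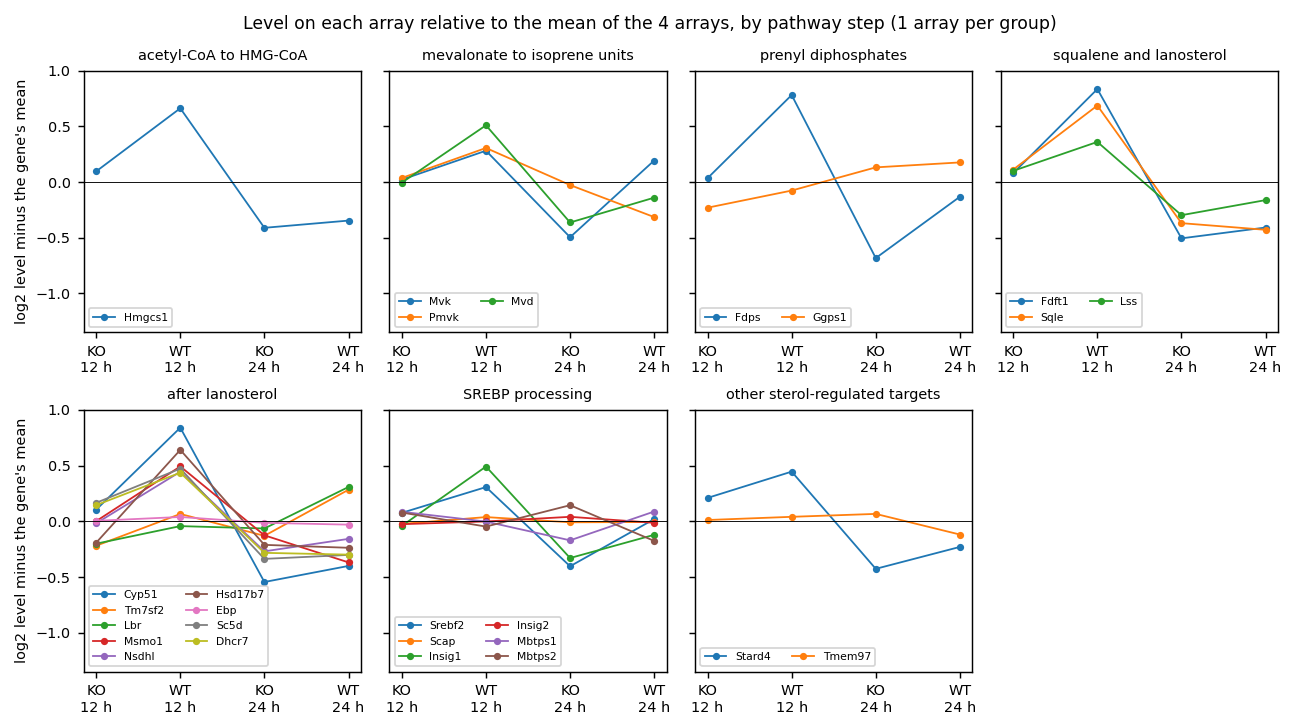
Log2 level on each array minus the mean of the gene over the 4 arrays, 1 panel per pathway step, with lines joining the arrays of a gene to guide the eye. The WT array at 12 h is the peak for 19 of the 26 genes, and Ggps1, Lbr, Tm7sf2 and Mbtps1 are instead highest in WT at 24 h.

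The only fit with a residual took genotype and time as added terms over the 4 arrays (limma, 1 residual degree of freedom, Benjamini-Hochberg adjustment over 13308 genes). What it takes as error is how far a gene's genotype difference varied with time, and not a spread between replicates. For genotype, 0 of 26 genes passed an adjusted p under 0.05, as did 0% of the genes kept, and the lowest adjusted p was 0.760. At an unadjusted p under 0.05 there were 6 of 26 genes, against 6.52% of the genes kept, all lower in KO: Fdps at -0.65 ± 0.12 (SE), Mvk at -0.47 ± 0.15, Insig1 at -0.37 ± 0.14, Mvd at -0.37 ± 0.13, Tm7sf2 at -0.35 ± 0.12 and Srebf2 at -0.33 ± 0.12. Fdft1, Cyp51 and Hsd17b7 were not among them, with differences of -0.10, -0.14 and 0.03 at 24 h beside those at 12 h.

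For time, 0 of 26 genes passed in the same fit, with a lowest adjusted p of 0.163 for Fdps, and 13 had an unadjusted p under 0.05, all lower at 24 h, against 13.2% of the genes kept. With the level filter at the 60th percentile, Fdps alone passed, with an adjusted p of 0.0426 in limma, against 1.65% of the genes then kept. When the variance was allowed to follow the mean level, 9 of 26 genes had an adjusted p under 0.05 for time in limma, against 4.06% of the genes kept, and 0 for genotype. The 9 were Fdps, Sc5d, Cyp51, Hmgcs1, Fdft1, Sqle, Dhcr7, Insig1 and Srebf2, all lower at 24 h, with adjusted p from 0.00893 for Fdps to 0.0496 for Srebf2. In that fit the time difference of Cyp51 was -0.95 ± 0.15 and that of Fdps -0.82 ± 0.11 on the log2 scale (SE over 4 arrays).

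Genes around the pathway were taken from lists that were chosen with earlier results of these data known. The 16 measured genes of acetyl-CoA supply and fatty acid synthesis that SREBP proteins also drive had a median difference of -0.19 at 12 h with 16 of 16 below 0, against 49.4% of the genes kept, and 1 lower by at least 1.5-fold, against 1.4%. At 24 h the median was -0.10, with 12 of 16 below 0, against 49%, and 2 lower by at least 1.5-fold, against 3.51%. Acly, ATP citrate lyase, was at -0.12 at 12 h and -0.19 at 24 h. Acss2, acetyl-CoA synthetase, was at -0.13 and 0.35 at these times, and Aacs, acetoacetyl-CoA synthetase, at -0.41 and 0.16. The time difference of these 16 had a median of -0.09 in KO and -0.22 in WT.

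The branches that use mevalonate products for other ends lay near 0 at 12 h. The 11 measured genes of prenylation, dolichol and ubiquinone synthesis had a median of 0.04 at 12 h and 0.13 at 24 h. At either time 0 of the 11 were past 1.5-fold, a count near the share of all genes. That share was 2.9% of the genes kept at 12 h and 6.49% at 24 h, in either direction. Among the 11, Fnta and Fntb, the farnesyltransferase subunits, were at -0.05 and 0.07 at 12 h, and Pggt1b, a subunit of a related prenyltransferase, was at -0.16. The 5 measured electron carriers and partners of sterol enzymes had medians of -0.04 at 12 h and 0.02 at 24 h, with the cytochrome b5 genes Cyb5a and Cyb5b at -0.03 and -0.04 at 12 h and the reductase gene Cyb5r3 at -0.14.

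Genes of sterol-regulated protein degradation and of intracellular cholesterol movement lay near 0. The 9 measured degradation genes had a median of -0.04 at 12 h and -0.00 at 24 h. Of these only Rnf145, a ubiquitin ligase, was lower by at least 1.5-fold at 24 h, against 3.51% of the genes kept, with a level of 5.98 in KO and 6.56 in WT. Its difference of -0.5851 was only just inside the rule. Rnf139 and Syvn1, other ligases, were at -0.04 and -0.05 at 12 h. The 9 genes of cholesterol release and movement had medians of 0.04 at 12 h and -0.00 at 24 h, with Npc2, the lysosomal cholesterol carrier, at 0.02 and 0.11, and Gramd1a and Gramd1b, which move cholesterol to the endoplasmic reticulum, at -0.19 and 0.02 at 12 h.

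Sterol export and oxysterol synthesis are the other side of the loop. The 7 measured LXR genes had a median of -0.02 at 12 h and -0.15 at 24 h. Abca1, the cholesterol exporter, had a log2 level of 7.99 in KO and 9.31 in WT at 24 h, against 7.19 in KO and 7.22 in WT at 12 h, so that it was higher at the later time in both genotypes. Abcg1, a related exporter, was higher at 24 h by 0.47 in KO and 0.62 in WT, and the LXR alpha gene Nr1h3 had genotype differences of -0.08 at 12 h and 0.67 at 24 h. The 4 oxysterol genes had a median of -0.37 at 12 h and 0.10 at 24 h. Of these Cyp27a1, sterol hydroxylase, was at -0.32 at 12 h and -0.34 at 24 h, whereas Cyp7b1 lay below the level filter and Ch25h near it.

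Markers of stromal cells and macrophages and reference genes were compared in the same way. The 9 stromal markers had a median of -0.47 at 12 h and -0.49 at 24 h between the genotypes, on the same side as the sterol genes, and of 0.47 in KO and 0.64 in WT between the times, on the opposite side. They were uneven, with genotype differences from -1.06 to -0.11 at 12 h and from -0.97 to 0.04 at 24 h. By time, 2 of the 9 in KO and 3 in WT lay below 0. Col1a1 was at -0.58 and Col1a2 at -0.56 at 12 h, and at 24 h they were at -0.88 and -0.95. The 8 macrophage markers had a median of 0.01 at 12 h and -0.27 at 24 h, and their summed linear level was 18710 in KO and 19310 in WT at 12 h, and 19261 in KO and 22711 in WT at 24 h. The 7 reference genes had medians of 0.00 at 12 h and 0.03 at 24 h, with Actb at 0.05 and 0.01. The part of stromal RNA in the differences of the sterol genes was not tested.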

How the data were processed

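Transcripts of mouse macrophages were measured on 4 arrays. Each probe set has a log2 value from RMA, which the submitters' processing notes name without a version. RMA equalises the distributions of the arrays and so hides any shift common to all transcripts. The log2 scale was inferred from the deposited values, whose medians were 2.70 to 2.73. Arrays were assigned to groups by their titles.

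Of 41345 probe sets, 23521 had 1 gene symbol in the platform annotation, 1814 several and 16010 none. The symbols of all 28 genes were found in the RefSeq table of GRCm38.p6. For the 1082 genes with several probe sets the one with the highest mean was used. Genes whose mean over the arrays reached the 40th percentile (2.44) were kept. Differences were counted past 1.5-fold with no test, since there was 1 array per group. limma 3.58.1 in R 4.3.3 fitted genotype and time as added terms. The steps were tested on simulated data of 13308 genes, with noise scaled to the difference between the KO and WT arrays at 12 h. For genotype, limma recovered 61% of 2-fold and 98% of 4-fold changes at an adjusted p under 0.05, and called 0 unchanged genes. The 1.5-fold rule at 12 h recovered 96% and 100%, and also called 305 unchanged genes. The simulation held no pool effect and no change of the genotype difference with time. Among the genes kept, the genotype difference had a standard deviation of 0.23 at 12 h and 0.31 at 24 h. These rates therefore describe the simulated noise and may not hold for the real arrays.

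The 28 genes, 13 other lists and the alternatives were chosen with earlier results of these data known. Named genes were all members, Hilpda and genes among the first 3 measured of each other list. Lum and Thy1 fall outside this rule and were named after their values were seen, as the stromal markers below the level filter. The small number of arrays limits the precision. Alternatives were other level filters, folds and scalings, and the mean over probe sets.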

Additional observations from a re-analysis of the deposited data

Results flagged for a closer look

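With 1 array per group, a gene whose difference has opposite signs in 2 groups was listed, and none of these contrasts was tested. The genotype difference had opposite signs at the 2 times for 9 genes, and the time difference in the 2 genotypes for 5, with 3 genes in both. In 2 of these cases, Pmvk and Msmo1 by genotype, both differences were at least 0.1 in size. Opposite signs were common among all genes kept, so a listing does not set a gene apart. Of the genes kept, 49.4% were lower in KO at 12 h and 49% at 24 h, but 26% at both times. By time, 49.5% were lower at 24 h in KO and 50.8% in WT, but 29.8% in both genotypes. Sizes below are the change of the genotype difference, 24 h minus 12 h, which is also the time difference in KO minus that in WT.

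The larger ones were enzymes near equal or higher in KO at 24 h and lower at 12 h. For Hsd17b7 the size was 0.86, from genotype differences of 0.03 at 24 h and -0.83 at 12 h. For Msmo1 it was 0.73 (0.24 at 24 h and -0.49 at 12 h) and for Sqle 0.63 (0.06 and -0.57). For Pmvk it was 0.56 (0.29 and -0.27) and for Dhcr7 0.31 (0.02 and -0.29). The opposite sign at 24 h did not hold under every scaling. With median centring Hsd17b7 was at -0.0037, Ebp at -0.0137 and Dhcr7 at -0.0139, and Hsd17b7 and Dhcr7 were also below 0 after quantile normalization and loess. Insig2 likewise lost its opposite sign by time, with 0.0157 in WT after median centring. The protease gene Mbtps1 lay on the other side at -0.35, and its time difference was -0.26 in KO and 0.09 in WT. For Tmem97 the value was 0.21, and for Mbtps2, by time alone, 0.19. For Ebp it was 0.0511, for Insig2 0.0786 and for Scap, by time alone, 0.058.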

How the results depend on the processing

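No paired analysis was possible because each group had 1 array. Over the level filters, folds, centring, quantile normalization, loess and the mean over probe sets, the median over the 26 genes stayed between -0.28 and -0.27 for genotype at 12 h, -0.11 and -0.08 at 24 h, -0.28 and -0.27 for time in KO, -0.61 and -0.58 for time in WT, and 0.16 and 0.20 for the change between times. Counts moved by construction with the fold rule. Lower in KO at 12 h were 10 of 26 genes at 1.3-fold and 0 at 2-fold. Of the genes kept, 9.9% and 0.255% passed these rules in either direction. At 24 h 4 and 0 were lower, against 17.1% and 0.774% in either direction. Lower at 24 h than at 12 h in KO were 11 and 0, against 16.8% and 1.13% in either direction. In WT 4 were lower at 2-fold. The least of these was Hmgcs1, and 105 of the 13308 genes kept lay at or below its value. For the change between times, the 5 genes higher at 1.5-fold were joined at 1.3-fold by Pmvk at 0.56 and Hmgcs1 at 0.50. Hmgcs1 was the least of these, and 12398 of the 13308 genes kept lay at or below its value. At 1.3-fold 1 gene was lower, Mvk at -0.43, and 1291 of the 13308 genes kept lay at or below that value. At 2-fold 0 were higher, the largest being Hsd17b7 at 0.86, and 13118 of the 13308 genes kept lay at or below that value. All 26 genes passed the 60th percentile of level, where 1.03% of 8872 genes lay past 1.5-fold in either direction at 12 h. For time in limma, members with an adjusted p under 0.05 numbered 1 with that filter (Fdps, 0.0426, against 1.65% of the genes) and 9 with the variance following level, against 0 with no filter and after quantile normalization. Scap has a second, dim probe set, and with the mean of both it was at 0.04 at 12 h and -0.13 at 24 h. No called value of a single gene turned its sign.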
